A study of Mus musculus with 5 samples.

Results

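The nuclear genes of oxidative phosphorylation were examined in single immune and skin cells from mouse dermis. Members were taken by symbol: every gene beginning Nduf, Sdh, Uqcr, Cox4, Cox5, Cox6, Cox7, Cox8 or Atp5, without pseudogenes marked -ps, which gave 96 of the 27998 genes in the table. They comprised 36 subunit genes of complex I, 4 of complex II, 8 of complex III, 19 of complex IV and its isoforms, 15 of complex V, and 14 assembly or related factors. They were set against the 13 protein-coding genes of mitochondrial DNA, whose symbols begin mt-. The rule uses symbols only. A gene listed under an unrelated symbol would be missed, as was Cyc1, the cytochrome c1 subunit of complex III.

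The cells were live CD45+ cells sorted from dissected dermis of C57BL/6 mice, with no other genotype or allele named. The series follows the skin through telogen, the resting phase of the hair follicle. It has 5 droplet libraries, 1 each at postnatal day 45, 50, 63 and 80 (P45, P50, P63, P80) and 1 labelled P50_Depil5D. That label names depilation, the removal of hair, and 5 days; whether P50 was the day of depilation or of collection is not stated, nor is the number or sex of the mice. No group had a second library, so every difference between ages or with depilation has no replicate check. Values over libraries are given throughout in the order P45, P50, P63, P80 and P50_Depil5D.

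Oxidative phosphorylation takes place in the inner mitochondrial membrane. Complexes I and II pass electrons to coenzyme Q, complex III passes them to cytochrome c, and complex IV passes them to oxygen; the proton gradient built on the way drives ATP synthesis by complex V. Complexes I, III, IV and V combine subunits encoded in the nucleus with a few encoded in mitochondrial DNA, whereas complex II is wholly nuclear. T cells are known to raise respiration and glycolysis on activation, and keratinocytes to lean heavily on glycolysis.

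The promoters of 3 members are shown because the comparisons below turn on these genes: Ndufa11, an accessory subunit of the membrane arm of complex I, Ndufaf4, an assembly factor of complex I, and Cox6b2, the testis isoform of complex IV subunit VIb. Each line gives the bases just before the RefSeq start site (GRCm38.p6), 5′ to 3′ in the direction of the gene, kept to the stretch outside annotated exons. Capitals mark overlapping matches, on both strands, of the NRF1 motif GCGCATGCG, named for a transcription factor known to act on nuclear genes of respiration. The stretches are chr17:56717686-56717761 (plus strand), chr4:24897833-24898082 (plus strand) and chr7:4753095-4753225 (minus strand).
Ndufa11: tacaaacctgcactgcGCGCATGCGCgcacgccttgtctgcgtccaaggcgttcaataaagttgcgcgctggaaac
Ndufaf4: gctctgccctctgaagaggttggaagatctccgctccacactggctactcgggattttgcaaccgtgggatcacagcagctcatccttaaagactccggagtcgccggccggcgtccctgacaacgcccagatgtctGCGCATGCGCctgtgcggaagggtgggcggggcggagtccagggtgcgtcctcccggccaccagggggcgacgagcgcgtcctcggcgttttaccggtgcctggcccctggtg
Cox6b2: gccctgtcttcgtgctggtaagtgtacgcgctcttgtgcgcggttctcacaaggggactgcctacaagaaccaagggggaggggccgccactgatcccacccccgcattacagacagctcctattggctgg

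RefSeq promoters were matched for 80 of the 96 members. In windows of 300 bases, from 250 before to 50 after the start and on both strands, the NRF1 motif stood in 10 of the 80 (12.5%) and in 1.95% of the promoters of all 27025 genes. These 10 were Atp5g2, Atp5k, Atp5l, Cox6a1, Ndufa8, Ndufa11, Ndufaf4, Ndufaf5, Uqcr11 and Uqcrc1. The YY1 motif AAGATGGCG was found in 8 members (10.0%) against 1.64% of all genes: Atp5j, Atp5j2, Atp5sl, Ndufa9, Ndufc1, Ndufs4, Ndufs6 and Ndufs7. The ETS motif CCGGAAGT stood in 6.25% against 4.31%, the core of the hypoxia response element, ACGTG, in 26.25% against 21.78%, and TATAAA in 10.0% against 15.67%. The Cox6b2 window held none of these 5 motifs. A match is a string of letters, not a measured binding site.

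The libraries held 2153, 1479, 592, 497 and 1502 barcodes and between 1032621 and 7491878 UMIs (unique molecular identifiers, each counting 1 captured transcript). Cells were assigned to a class by gates on marker genes: a cell needed UMIs from at least 2 distinct markers of a class, and more than from any other class. This placed 4631 of 6162 cells. T cells (452, 640, 156, 69 and 710), dendritic cells (145, 47, 12, 11 and 53), macrophages (426, 147, 41, 34 and 68) and keratinocytes (316, 209, 222, 264 and 213) were frequent enough in each library to be compared. Keratinocytes were thus gated in libraries sorted on CD45, a marker of leukocytes; their 9 markers summed to 14100 to 21100 CPM (UMIs per 1000000 UMIs of the class in a library) in the keratinocyte gate. The same markers summed to 108 to 927 CPM in T cells, 21.8 to 428 in dendritic cells and 37.2 to 2600 in macrophages (median 287). T cell markers summed to 4920 to 13700 CPM in the T cell gate and 221 to 731 in keratinocytes. RNA of one class was thus found in the other, at a lower level than in its own gate. The T cell gate uses Cd2, Thy1 and Lat, which natural killer and innate lymphoid cells share.

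In 834 cells the barcode also occurred in another library: 12, 199, 196, 247 and 180. Keratinocytes made up 604 of these, so 604 of 1224 gated keratinocytes carried such a barcode, against 39 of 2027 T cells, 26 of 716 macrophages and 13 of 268 dendritic cells. Some results for keratinocytes are therefore also given without them, namely the numbers of called members, the mean ratio of nuclear to mt- UMIs and several ratios between libraries. The shares of UMIs, the mt- calls and the calls on other gene lists are given only with them.

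As a share of all UMIs, the 96 nuclear genes took up nearly the same part of each class. The members summed to 2.20% ± 0.212 (SD, n = 5 libraries) of UMIs in T cells, 2.22% ± 0.197 in dendritic cells, 2.19% ± 0.259 in macrophages and 2.25% ± 0.103 in keratinocytes. The class means differed by less than the spread between libraries within any class. For scale, the genes of the cytosolic ribosome took up 24.9% ± 2.26 in T cells and 35.2% ± 2.37 in keratinocytes.

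The complexes stood in similar proportions in the 4 classes. Complex I averaged 0.612% of UMIs in T cells, 0.603% in dendritic cells, 0.605% in macrophages and 0.612% in keratinocytes, and complex IV averaged 0.630%, 0.634%, 0.645% and 0.630% in the same order. Complex V followed at 0.634%, 0.657%, 0.603% and 0.633%. Complex III, with 8 genes, took 0.231%, 0.249%, 0.254% and 0.267%. Complex II, the succinate dehydrogenase that also serves the tricarboxylic acid cycle, was far lower in all classes, from 0.0179% in dendritic cells to 0.0291% in keratinocytes.

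**Figure D1:**
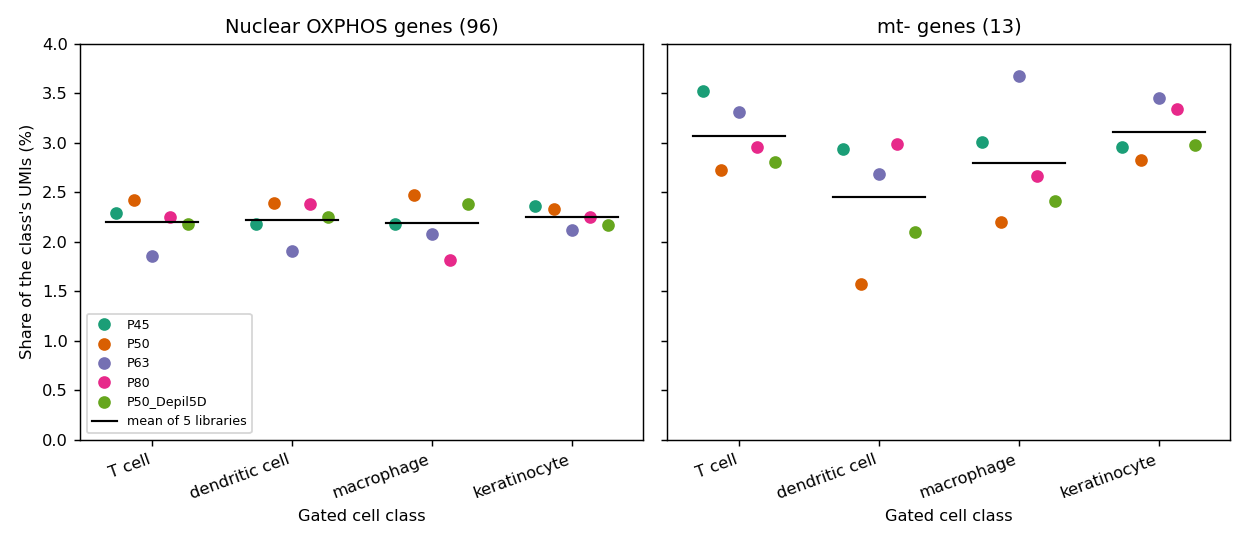
Share of all UMIs (percent, vertical axis) on the 96 nuclear members and on the mt- genes, by cell class and library; black lines are means of 5 libraries. The nuclear shares lie between 1.82% and 2.48% in all 20 points, while the mt- shares spread more widely.

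The 13 mt- genes were less even. They took up 3.07% ± 0.341 of UMIs in T cells, 2.46% ± 0.609 in dendritic cells, 2.79% ± 0.579 in macrophages and 3.11% ± 0.271 in keratinocytes (SD, n = 5), in cells that had been limited to at most 10% mt- UMIs. The ratio of nuclear to mt- UMIs in T cells was 0.650, 0.889, 0.561, 0.762 and 0.776. It was 0.742, 1.521, 0.709, 0.798 and 1.074 in dendritic cells.

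The ratio was 0.724, 1.127, 0.564, 0.683 and 0.986 in macrophages. In keratinocytes it was 0.800, 0.826, 0.614, 0.674 and 0.727. The P50 library had the highest ratio and the P63 library the lowest in each of the 4 classes. On the log2 scale the ratio averaged -0.48 ± 0.256 in T cells, -0.11 ± 0.462 in dendritic cells, -0.34 ± 0.406 in macrophages and -0.47 ± 0.176 in keratinocytes. From lowest to highest, the libraries within each class spread more widely than the 4 class means did. The whole libraries showed the same pair of extremes: P50 had the highest member share (2.41%) and the lowest mt- share (2.49%), and P63 the lowest member share (2.08%) and the highest mt- share (3.45%). The part of library preparation in this was not tested, and with 1 library per age the library and the age cannot be told apart.

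**Figure D2:**
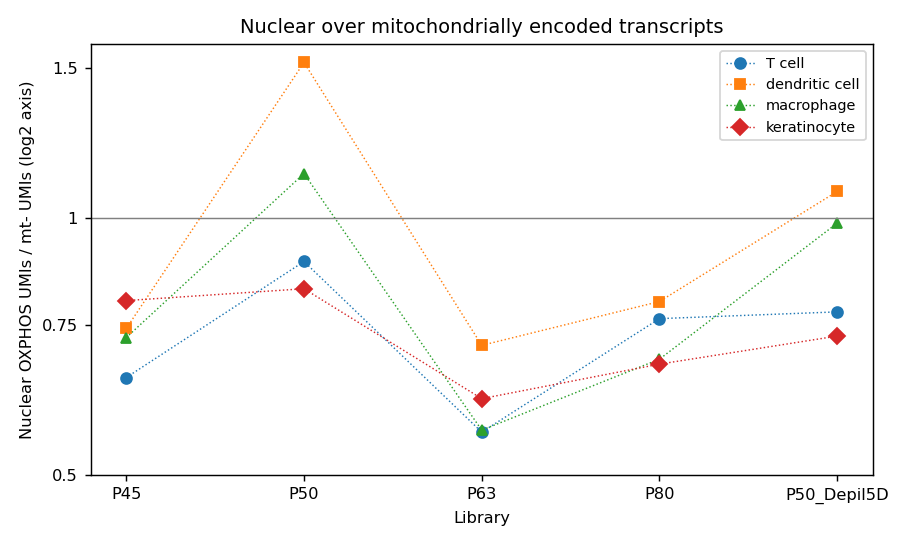
Ratio of nuclear member UMIs to mt- UMIs (log axis) for each library, with a dotted line joining the 5 values of a class. P50 is the top point and P63 the bottom point in all 4 classes.

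Among single genes, Cox4i1, the ubiquitous isoform of a regulatory complex IV subunit, was the most abundant member, with a mean of 1190.0 CPM over the 4 classes. Atp5l, a subunit of the membrane sector of ATP synthase, followed at 930.0 CPM and Atp5e, the smallest subunit of its catalytic sector, at 860.0. Cox8a averaged 844 CPM and Cox6c 736, both small subunits of complex IV. The values are counts of 3' transcript ends and are not scaled by transcript length. The leading members of the other groups were Uqcrh, the hinge protein of complex III (728 CPM), Ndufa2 in complex I (463), the supercomplex factor Cox7a2l (460.0) and Sdhb, the iron-sulfur subunit of complex II (116).

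Of the 96 members, 94 had at least 1 UMI. For the genes with isoforms, the form known from most tissues carried nearly all UMIs. Over all cells Cox4i1 had 20714 UMIs and Cox4i2, the hypoxia-responsive lung form, 30. Cox8a had 14931 UMIs, against 1 for the heart and muscle form Cox8b and 0 for the testis form Cox8c. Cox7a2 had 7429 UMIs, against 55 for its heart and muscle counterpart Cox7a1.

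Cox6a1 had 6953 UMIs, against 8 for the heart and muscle form Cox6a2. Cox7b had 5771 and its testis counterpart Cox7b2 had 0. A count of 0 at this depth allows up to 3 UMIs, as far as counting error goes. The exceptions were a pair of minor forms: Ndufa4l2 with 931 UMIs beside 5085 for Ndufa4, and Cox6b2 with 827 beside 11106 for Cox6b1. The 3 genes Atp5g1, Atp5g2 and Atp5g3, which encode the same mature c subunit of ATP synthase, were all in use, with 5417, 8647 and 2901 UMIs.

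Ndufa4 is the counterpart of Ndufa4l2 and is a subunit of complex IV despite its name. It averaged 421 ± 122 CPM in T cells (SD, n = 5), 256 in dendritic cells, 261 in macrophages and 257 in keratinocytes, and its T cell values, 429, 525, 247, 542 and 362 CPM, overlapped those of keratinocytes, 266, 268, 256, 275 and 222. The c subunit genes stood in the same order in all 4 classes, Atp5g2 above Atp5g1 above Atp5g3. Atp5g2 averaged 436, 553, 426 and 543 CPM in T cells, dendritic cells, macrophages and keratinocytes, Atp5g1 269, 326, 250 and 396, and Atp5g3 179, 134, 133 and 206.

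Classes were then compared gene by gene with edgeR's quasi-likelihood test on UMIs summed per class and library, with the library as a block and adjusted p-values (Benjamini-Hochberg) over all 6113 genes tested. The 5 libraries serve as replicates of a class. Of the 96 members, 82 had enough counts to be tested. The 14 that did not were 8 factors (Ndufaf1, Ndufaf3, Ndufaf5, Ndufaf6, Ndufaf7, Sdhaf3, Atp5s and Atp5sl) and 6 rare complex IV isoforms (Cox4i2, Cox6a2, Cox7a1, Cox7b2, Cox8b and Cox8c). Calls below were made at an adjusted p under 0.05.

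Keratinocytes set against the mean of the 3 immune classes gave the most calls. In the edgeR test 33 of 82 members were higher in keratinocytes (40.2%) and 2 were lower, at adjusted p under 0.05. Of all genes tested, 32.3% were higher and 21.6% lower (53.9% in all). Called in either direction were 42.7% of all 82 members and 68.5% of the 577 genes at or above the median member level. The members were not cut at that level. The median log2 difference was 0.28 over members and 0.20 over all genes. Beside these calls, 78 of 85 tested cytosolic ribosome genes were higher in keratinocytes and none lower.

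The number of calls moved with the scaling and the cells used. With library totals in place of TMM factors, the median log2 difference of all genes went from 0.20 to 0.02, that of members to 0.08, and 24 members were called higher and 10 lower. RLE factors gave 28 and 8, and DESeq2 33 and 10. Without cells whose barcode occurs in another library, 16 members were higher and 5 lower. Without the P45 library 20 were higher and 5 lower, and without P50_Depil5D 41 were higher and 1 lower. Calls in the same direction under all alternatives were held by 16 of the 33 higher members and by 1 of the 2 lower ones.

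By role, the higher members are counted here beside the 32.3% of all genes tested that were higher. Among complex I genes, 13 of 29 accessory subunits and 2 of 7 core subunits were higher (41.7% of its genes). In complex II 2 of 4 were higher (Sdhb and the membrane anchor Sdhc), in complex III 3 of 8 (Uqcrc1, Uqcr11 and Uqcrh), in complex IV 3 of 13 (Ndufa4l2, Cox7a2 and Cox4i1; 23.1%), in complex V 7 of 15 (46.7%), and among factors 3 of 6. Apart from the 6 largest, described next, the fitted changes of the higher members ran from 0.34 for Atp5l to 0.75 on the log2 scale for Atp5j, coupling factor 6 of the ATP synthase. Of the 70 tested members with a RefSeq promoter 27 were higher, among them 6 of the 9 with the NRF1 motif and 5 of the 7 with the YY1 motif; these are counts of few genes and carry no test.

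**Figure D3:**
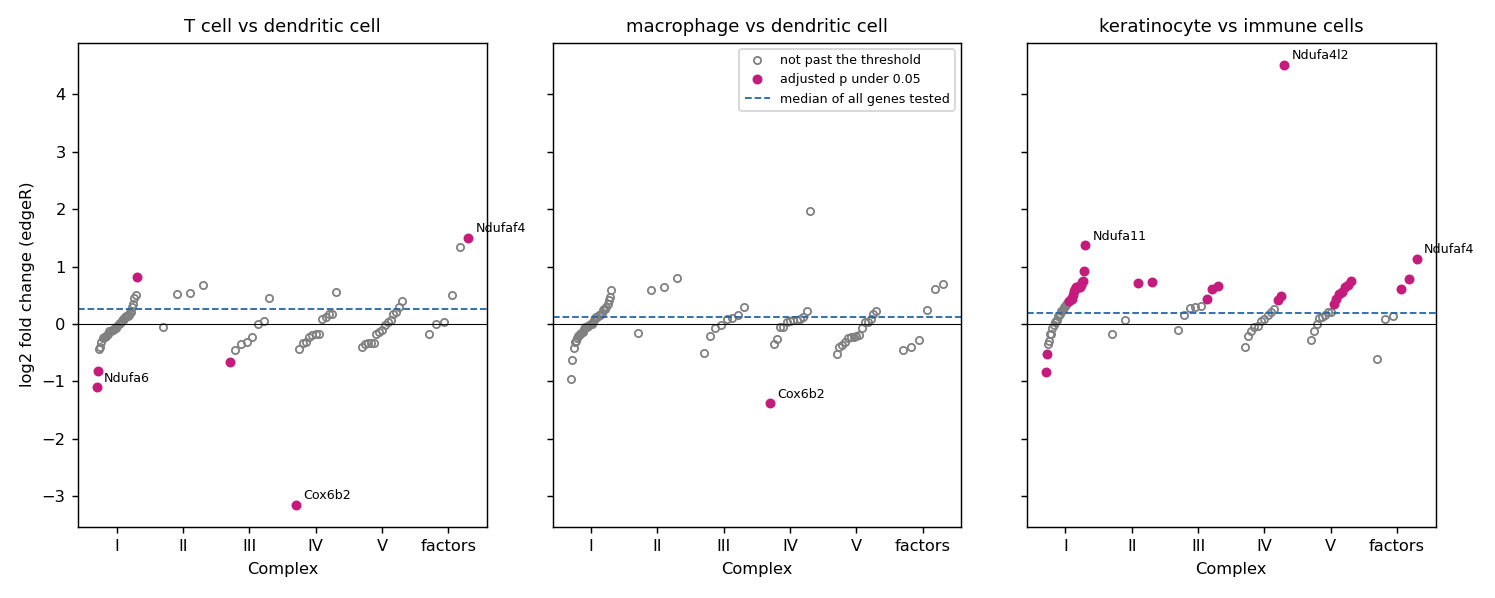
Log2 fold change (vertical axis) of the 82 tested members by complex (horizontal axis), 1 panel per comparison; each point is 1 gene, filled where the adjusted p is under 0.05, and the dashed line is the median of all genes tested. Most points lie near 0; Ndufa4l2 stands far above in the keratinocyte comparison and Cox6b2 far below in T cells against dendritic cells.

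Ndufa4l2 differed most. It is a paralogue of Ndufa4, known as a target of hypoxia-inducible factor 1 that lowers respiration in hypoxic cells, and lies at chr10:127514967-127517154 (GRCm38, plus strand). In keratinocytes it stood at 48.5, 134, 140.5, 106 and 260.5 CPM, against 8.78, 0, 0, 0 and 1.87 in T cells, 2.12, 5.44, 28.6, 0 and 0 in dendritic cells, and 7.83, 31.0, 0, 22.6 and 18.6 in macrophages. The keratinocyte values lay above all 15 immune values. The fitted log2 difference was 4.52 ± 0.378 (SE), or 22.9-fold, with an edgeR adjusted p of 5.1e-13 and a largest value of 1.48e-09 over the alternatives.

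Ndufa4l2 was also found in other cells that are not leukocytes. Gated fibroblasts had 386, 134, 422, 0 and 30.7 CPM of Ndufa4l2, from 92, 22, 12, 3 and 6 cells. The 6 fibroblast markers summed to 3.27 to 39.1 CPM in keratinocytes and the 7 pericyte or smooth muscle markers to 15.3 to 25.3, where 6 of the 7 had UMIs. Ndufa4l2 overlaps exons of Shmt2 on the other strand, and whether counting used the strand is not stated; Shmt2 had 214 UMIs in all cells, against 931.

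Ndufa11 (chr17:56717767-56722141, plus strand), whose promoter with the NRF1 motif is printed above, was the only other member whose keratinocyte values lay above all immune values. Ndufa11 stood at 325, 328, 294, 343 and 272 CPM in keratinocytes, at 154, 168, 97.5, 132 and 132 in T cells, at 123, 158, 143, 160.2 and 135 in dendritic cells, and at 136, 135, 144, 113 and 143 in macrophages. The log2 difference was 1.38 ± 0.148 (2.59-fold, edgeR adjusted p 1.47e-10), and its largest adjusted p over the alternatives was 2.21e-05. Of all genes tested, 7.33% lay above without overlap. Vmac, which overlaps the start of Ndufa11 on the other strand, had 110 UMIs.

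**Figure D4:**
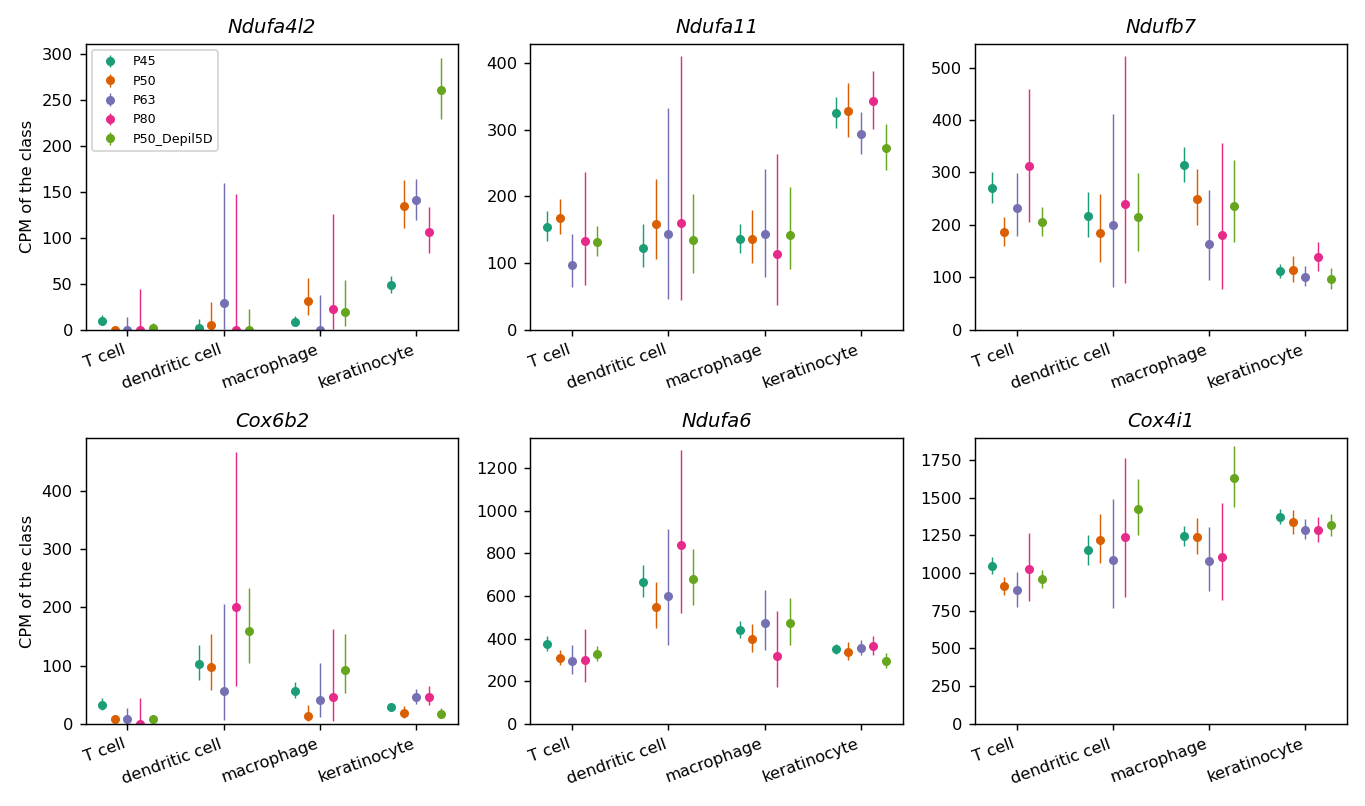
Levels (CPM, vertical axes) of 5 members that differed between classes and of the most abundant member, Cox4i1, by class and library; bars are 95% Poisson intervals, which cover counting error only. Keratinocyte points lie above all others for Ndufa4l2 and Ndufa11 and below all others for Ndufb7, and dendritic cell points lie above the T cell points for Cox6b2 and Ndufa6.

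The next largest were an assembly factor, a pair of accessory subunits and another factor. Ndufaf4, also printed above, was 2.20-fold higher in keratinocytes (log2 1.14 ± 0.319, edgeR adjusted p 0.00251); its 5 keratinocyte values were 22.8, 44.3, 27.1, 43.2 and 28.3 CPM. Ndufa10, an accessory subunit at 124, 117, 114, 110.2 and 128 CPM, was 1.89-fold higher (log2 0.92 ± 0.175, adjusted p 2.3e-05). Ndufb9, which carries a LYR motif as several small accessory subunits do, was 1.68-fold higher (log2 0.75, adjusted p 6.24e-05). Ndufaf2, a factor related to the subunit Ndufa12, was 1.72-fold higher (adjusted p 0.0102), a call that was lost without shared barcodes (adjusted p 0.12). All 4 overlapped with immune cells in at least 1 library.

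The 2 members called lower in keratinocytes, Ndufb7 and Ndufa3, are both accessory subunits of complex I. Ndufb7, which faces the intermembrane space (chr8:83566671-83571626, plus strand), stood at 112, 114, 100.3, 138 and 95.9 CPM in keratinocytes. T cells had 270, 186, 232, 313 and 204 CPM of Ndufb7, dendritic cells 216, 185, 200, 240 and 214, and macrophages 314, 248, 164, 181 and 236. All keratinocyte values lay below all immune values, as did 2.9% of all genes tested. The log2 difference was -0.84 ± 0.168 (edgeR adjusted p 5.03e-05), with a largest adjusted p of 0.00265 over the alternatives.

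Ndufa3 had 252, 181, 202, 276 and 178 CPM in keratinocytes and overlapped with dendritic cells (403, 413, 143, 400.5 and 312). Its log2 difference of -0.53 ± 0.172 (edgeR adjusted p 0.00862) was lost without P50 (adjusted p 0.0774) and without P50_Depil5D (0.0697). Atp5e lay below all immune values without passing the test: its keratinocyte level was 652 ± 30.7 CPM, against 806 in T cells, 974 in dendritic cells and 1010.0 in macrophages, with a log2 difference of -0.29 ± 0.157 and an adjusted p of 0.122. Cox4i1 went the other way, at 1320.0 ± 37.2 CPM in keratinocytes, 965 ± 69.8 in T cells, 1220.0 ± 129 in dendritic cells and 1260.0 ± 221 in macrophages (log2 0.43, edgeR adjusted p 0.0105). That call was kept in 10 of 16 alternatives. It was lost with no scaling factors, with no library term, without shared barcodes, and without P45, P63 or P80 (largest edgeR adjusted p 0.372).

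Few members were called between T cells and dendritic cells. In simulated data the test recovered 24% of genes given a log2 change of 1 in this comparison, and 63% in the keratinocyte comparison. The changed genes were drawn from all 6113 genes tested, most of them below the median member level. The recovery of members was not measured, and these shares do not give it. Few calls do not by themselves show that T cells and dendritic cells differ little. In the edgeR test 2 of 82 members were higher in T cells and 4 were lower, where 17.1% and 11.3% of all genes tested were called. The median log2 difference was -0.04 over members and 0.25 over all genes. Of the 577 genes at or above the median member level 37.4% were called in either direction, against 7.32% of all 82 members. The members were not cut at that level. With library totals the median of all genes was 0.39, that of members 0.08, and 5 members were higher and 4 lower; RLE factors gave 5 and 6. Without P45 no member was higher and 7 were lower, without P50 none and 2, and without P50_Depil5D 1 and 2.

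Cox6b2 was the strongest of these. It is known from testis and lies at chr7:4751792-4753094 (minus strand); the bases before its start are printed above. Dendritic cells had 102, 97.9, 57.1, 200.2 and 159 CPM of Cox6b2, from 48, 18, 2, 5 and 26 UMIs, and T cells had 31.9, 7.31, 7.50, 0 and 7.47. The groups did not overlap. The log2 difference, T cells less dendritic cells, was -3.15 ± 0.415 (edgeR adjusted p 9.03e-08), and over the alternatives its adjusted p reached at most 0.000291.

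In macrophages Cox6b2 stood between, at 56.6, 14.1, 41.0, 45.2 and 93.0 CPM, and in keratinocytes at 28.3, 18.99, 46.2, 46.0 and 16.4. Its dominant isoform Cox6b1 stood at 664, 843, 457, 641 and 723 CPM in dendritic cells and at 637, 818, 480.0, 614 and 649 in T cells, and was not called. Cox6b2 thus stood below Cox6b1 in all of these classes and libraries.

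Ndufa6, a LYR-motif subunit of complex I (chr15:82350140-82354322, minus strand), was also higher in dendritic cells, with 666, 549.5, 599, 841 and 680.2 CPM against 376, 311, 296, 301 and 328 in T cells. The groups did not overlap, and the log2 difference was -1.10 ± 0.2 (edgeR adjusted p 3.13e-05; at most 0.00401 over the alternatives). Macrophages had 442, 398, 472, 316 and 471 CPM of Ndufa6 and keratinocytes 352, 339, 357, 364 and 296. Dendritic cells were thus the highest of the 4 classes in every library.

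The other calls were weaker. Ndufc2, in the membrane arm of complex I, was lower in T cells (log2 -0.82 ± 0.261, edgeR adjusted p 0.014), as was Uqcrfs1, the Rieske iron-sulfur protein of complex III (-0.65 ± 0.238, adjusted p 0.0341). Both calls were lost without P50 (edgeR adjusted p 0.0731 and 0.11) and without P50_Depil5D (0.0598 and 0.204). They were also lost with no filter on low counts and with a gate of at least 3 markers. The Uqcrfs1 call was lost as well with no scaling factors, with no library term and without shared barcodes. Ndufa12, a complex I subunit, was higher in T cells, at 155, 183, 161, 132 and 147 CPM against 76.4, 81.6, 114, 80.1 and 79.7 (log2 0.82 ± 0.233, edgeR adjusted p 0.00629). Its call was lost without P45 (adjusted p 0.0539) or P50 (0.113), with no filter on low counts and with a gate of at least 3 markers.

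Ndufaf4 was called higher in T cells at an edgeR adjusted p of 0.0487 (log2 1.505 ± 0.585), on few counts. T cells had 37.5, 32.4, 18.8, 12.0 and 25.2 CPM of Ndufaf4 and dendritic cells 8.49, 5.44, 85.6, 0 and 0, the 85.6 resting on 3 UMIs in 12 cells. The call was kept in 5 of 15 alternatives. It was lost without P50 (edgeR adjusted p 0.249), P80 (0.0752) or P50_Depil5D (0.128). DESeq2, no library term, a gate of at least 3 markers and leaving out mt- genes also lost it. So did leaving out shared barcodes, cells of low ribosomal pseudogene share, or cells with 2 or more markers of another class. Of the 82 members tested, 4 lay below dendritic cells without overlap (4.88%), 3 of them called, and 4 lay above (4.88%), 1 of them called. The other 4, Cox4i1 below and Sdha, Cox6c and Sdhaf2 above, did not pass the test. Over all genes tested 3.84% lay below and 14.1% above without overlap.

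Macrophages against dendritic cells gave the fewest calls. In simulated data the test recovered 20% of genes given a log2 change of 1 here. Those genes were drawn from all genes tested, and the recovery of members was not measured. Few calls do not by themselves show a small difference. No member was higher in macrophages in the edgeR test and 1 was lower, where 4.48% and 1.75% of all genes were called (6.23% in all). At an unadjusted p under 0.05 the counts were 2 higher and 5 lower; DESeq2 called 0 higher and 2 lower at adjusted p under 0.05. The 1 member called by edgeR was again Cox6b2 (log2 -1.38 ± 0.412, adjusted p 0.0339), and its call was lost without P45 (adjusted p 0.0555), P50 (0.276), P63 (0.0504) or P80 (0.067). Both members called by DESeq2 were others, Ndufa6 (adjusted p 0.000562) and the catalytic β subunit of ATP synthase, Atp5b (0.0088), while Cox6b2 was at 0.0836. Ndufa6 lay below dendritic cells in all libraries without passing the edgeR test (log2 -0.62 ± 0.203, adjusted p 0.0584), and without P63 it was the 1 member called (0.0473); of all genes tested 0.949% lay below and 4.12% above without overlap.

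Several mitochondrially encoded subunits were called higher. Of the 12 mt- genes tested, 8 were higher in keratinocytes than in immune cells by edgeR at adjusted p under 0.05, where 32.3% of all genes were, led by mt-Nd4 (log2 0.81), mt-Cytb (0.70), mt-Nd2 (0.61) and mt-Atp6 (0.53). In T cells against dendritic cells 4 were higher, where 17.1% of all genes were: the same 4 genes, at 0.56, 0.53, 0.72 and 0.43. Of the 12, 1 was higher in macrophages than in dendritic cells, mt-Nd2 (log2 0.86, edgeR adjusted p 0.00763), where 4.48% of all genes were. No mt- gene was called lower in any of the 3 comparisons. These calls, like those on the lists below, are given with TMM factors only. With library totals the median log2 difference of all genes, keratinocytes against immune cells, was 0.02 in place of 0.20. As a share of UMIs the mt- genes averaged 3.11% in keratinocytes, 3.07% in T cells, 2.46% in dendritic cells and 2.79% in macrophages.

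Genes that act in or next to the respiratory chain but fall outside the symbol rule were taken from lists of known genes. Their counts in keratinocytes stand beside 32.3% of all genes tested that were higher and 21.6% that were lower. Of the electron carriers and their partners, 4 of 6 tested were higher in keratinocytes and none lower: Cisd1 of the outer mitochondrial membrane (log2 0.95), the electron transfer flavoprotein subunit Etfa (0.82), cytochrome c1, Cyc1 (0.65), and cytochrome c, Cycs (0.39). Cyc1 is itself a subunit of complex III and is not among the 8 complex III members counted above. Among 7 tested assembly and copper genes of complex IV none was higher and 2 were lower, the copper chaperone Cox17 (-0.94) and Cox16 (-0.55). Of 13 tricarboxylic acid cycle genes 5 were higher (38.5%), among them Suclg2 (1.24), Pdha1 (0.92) and Cs (0.59), and fumarase, Fh1, was lower (-1.29). These edgeR calls were made at adjusted p under 0.05.

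Of 58 mitochondrial ribosome genes tested, 18 were higher in keratinocytes (31.0%, near the 32.3% of all genes) and 1 lower (1.72%, against 21.6%). Of 12 glycolysis genes 2 were higher (the glucose transporter Slc2a1, log2 1.67, and Pgam1) and 5 lower, with Gapdh at -1.03. Both tested regulators, Yy1 and Lrpprc, were higher. In T cells against dendritic cells 3 glycolysis genes were higher (Tpi1, 0.79, Ldha, 0.64, and Aldoa, 0.60) and none lower. Of the tricarboxylic acid cycle genes Dlst (1.48) and Ogdh (0.97), both of the 2-oxoglutarate dehydrogenase complex, were higher and Fh1 was again lower (-2.06), where 17.1% of all genes were higher and 11.3% lower. Against dendritic cells macrophages had 1 glycolysis gene lower (Pgk1, -1.42), and no tricarboxylic acid cycle or mitochondrial ribosome gene was called in either direction.

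Between libraries of 1 class there is no test; ratios of levels are given with exact 95% intervals that cover counting error only. The summed members stood lower in P50_Depil5D than in P50 in all 4 classes. The ratio was 0.898 (0.882 to 0.915) in T cells, 0.943 (0.902 to 0.985) in dendritic cells, 0.962 (0.926 to 0.999) in macrophages and 0.930 (0.911 to 0.949) in keratinocytes. The mt- genes stood higher in the same pair, at 1.029, 1.335, 1.099 and 1.057. Without keratinocytes that carried 2 or more markers of another class, the keratinocyte member ratio was 1.005. P50 had the highest member share of the 5 whole libraries.

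P80 against P45 gave no common direction. The ratio of summed members was 0.983 (0.938 to 1.03) in T cells, 1.092 (1.004 to 1.186) in dendritic cells, 0.835 (0.777 to 0.895) in macrophages and 0.953 (0.936 to 0.970) in keratinocytes. The dendritic cells of P80 numbered 11 and its macrophages 34. The keratinocyte ratio was 0.914 without shared barcodes and 1.001 without cells that carried 2 or more markers of another class. The mt- ratio was 0.840 in T cells, 1.017 in dendritic cells, 0.885 in macrophages and 1.13 in keratinocytes.

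The members leaned on certain libraries as a group. Among those of at least 100 CPM, T cells had the lowest of their 5 values in P63 for 34 of 60 (56.7%), where 25.8% of 1274 genes of that level did so, and the highest in P50 for 29 of 60 (48.3%, against 23.0%). In dendritic cells 30 of 59 were lowest in P63 (50.8%, against 29.4%) and 29 were highest in P80 (49.2%, against 27.5%). In macrophages 34 of 55 were lowest in P80 (61.8%, against 31.2%) and 22 highest in P50 (40.0%, against 21.6%). In keratinocytes 26 of 64 were lowest in P50_Depil5D (40.6%, against 23.2%) and 19 highest in P80 (29.7%, against 20.2%). Members of 1 class share the library and its total, so these counts are not independent.

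Few single members stood out between libraries. A member was counted where it had at least 20 UMIs over both libraries, and called where the ratio passed 1.5-fold and the interval left out 1. In keratinocytes P80 over P45 called 3 higher and 1 lower of 86 members, where 8.7% and 5.54% of genes were called. P50_Depil5D over P50 called 2 higher and 2 lower of 83, where 4.31% and 3.05% of genes were called. Ndufa4l2 was in both: its ratio was 2.185 (1.612 to 2.949) for P80 over P45, and 1.941 (1.538 to 2.464) for P50_Depil5D over P50. Without shared barcodes Ndufa4l2 gave 2.46 (1.27 to 4.378) and 2.154 (1.629 to 2.876).

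The other keratinocyte calls were Ndufaf4 (1.90), Cox6b2 (1.625) and the complex I accessory subunit Ndufs4 (0.616) for P80 over P45. For P50_Depil5D over P50 they were the complex II assembly factor Sdhaf4 (2.113, from 27 and 11 UMIs), the core subunit Ndufs1 (0.359, from 10 and 24) and Sdhb (0.657, 0.505 to 0.851). Without shared barcodes only Sdhb among these 6 was still called (0.539, 0.380 to 0.759). Its keratinocyte levels were 216, 176, 109, 160.4 and 116 CPM, so P63 and P50_Depil5D were low and P45 high.

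In T cells P50_Depil5D over P50 called 0 of 84 members higher and 4 lower, where 2.46% and 3.49% of genes were called. They were the membrane anchors of complex II, Sdhd (0.579, 0.391 to 0.851) and Sdhc (0.590), the accessory subunit Ndufc1 (0.636) and the core subunit Ndufs8 (0.651). T cells had 70.3, 74.1, 52.5, 12.0 and 42.9 CPM of Sdhd, and P80 rested on 1 UMI. P80 over P45 called 2 higher and 2 lower of 82, where 6.3% and 2.73% of genes were called: Ndufab1, the mitochondrial acyl carrier protein (2.154), Ndufv3 (1.75), Sdhd (0.171, interval 0.004 to 0.98, 1 UMI against 88), and Atp5h (0.639), taken up below.

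In macrophages P50_Depil5D over P50 called 1 of 74 members higher and 5 lower, where 3.49% and 10.2% of genes were called. Cox6b2 was higher (6.594, 2.278 to 23.193, from 15 and 5 UMIs). Sdha, the flavoprotein of complex II (0.287), Ndufs3 (0.338), Sdhb (0.409), Ndufab1 (0.458) and Ndufb8 (0.612) were lower. P80 over P45 called 2 higher and 5 lower of 81, where 5.25% and 1.7% of genes were called. The 5 were Atp5g1 (0.240), Atp5d (0.390), Atp5j (0.433), Atp5g2 (0.442) and Cox7a2l (0.548), 4 of them ATP synthase subunits, each on 3 to 11 UMIs in P80; Ndufs6 (2.407) and Ndufa3 (1.668) were higher. Without cells carrying 2 or more markers of another class, Atp5g1 (0.158, from 1 UMI) and Ndufs6 (2.61) were the 2 of these 7 still called; Atp5d (0.322), Atp5j (0.308), Atp5g2 (0.67), Cox7a2l (0.849) and Ndufa3 (1.134) were not. In the other pair Cox6b2 (5.395) and Ndufab1 (0.288) were still called under that setting, and Sdha, Ndufs3, Sdhb and Ndufb8 were not.

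In dendritic cells P50_Depil5D over P50 called 0 of 71 members higher and 6 lower, where 3.53% and 7.61% of genes were called. Among them were the complex I genes Ndufv1 (0.356), Ndufa10 (0.360), Ndufc1 (0.422) and Ndufb8 (0.479), and Atp5f1 of the ATP synthase stalk (0.612). P80 over P45 called 2 of 71 higher, Ndufa8 (3.775) and Ndufb3 (2.475), and 1 lower, where 4.09% and 1.81% of genes were called. The lower member was Atp5j, with 0 UMIs in the 11 P80 cells and 121 in P45; the interval of its ratio reached 0.584. With a gate of at least 3 markers no dendritic cell member of either pair was still called; there Ndufv1 stood at 0.806 (0.135 to 3.532) and Atp5f1 at 0.986 (0.429 to 2.138).

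In cycling T cells the summed members took a larger share of UMIs, and the mt- genes a smaller one, than in other T cells of the same library. The split was chosen after seeing the data: T cells with UMIs from at least 3 of 12 cell cycle genes (such as Mki67, Top2a and Stmn1) were set beside T cells with none. The summed members were 1.198, 1.326, 1.212, 1.5 and 1.32 times as high, with 40, 71, 14, 4 and 56 cycling cells. The mt- genes were at 0.886, 0.801, 0.645, 0.781 and 0.818. The members were not the only list to stand higher: glycolysis stood at 1.445, 1.382, 1.551, 1.558 and 1.386, and the mitochondrial ribosome at 1.303, 1.31, 1.06, 1.879 and 1.324. The cytosolic ribosome stood lower, at 0.851, 0.818, 0.919, 0.863 and 0.742. It took up 18.95% to 24.40% of UMIs in cycling cells and 22.64% to 28.67% in other T cells. All lists are shares of the same total, and the part of this in the ratios was not tested.

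Single members followed: 66 of 81 counted, 66 of 78, 35 of 53, 23 of 30 and 68 of 79 stood higher in cycling cells, where 51.5%, 49.7%, 49.4%, 42.8% and 49.5% of all genes counted did, and none of the 10 to 12 mt- genes did in any library before shallow cells were left out. Cycling cells were deeper, with median counts of 3217.5, 2682, 2476, 1798.5 and 2551.5 UMIs against 2219, 1115, 1308, 938 and 1211. Other T cells were then limited to those at least as deep as the lower quartile of cycling cells, which left 123, 21, 24, 28 and 42. Their median counts were 3112, 2620, 2103, 1095 and 2257.5 UMIs, still below those of cycling cells in each library. Against them the member ratios were 1.199, 1.402, 1.194, 1.439 and 1.215 and the mt- ratios 0.925, 0.835, 0.659, 0.826 and 0.773. Against these cells 65 of 76 members, 57 of 70, 26 of 40, 17 of 22 and 56 of 70 stood higher, where 53.7%, 64.0%, 50.4%, 42.4% and 62.2% of all genes did. Of the mt- genes 3 of 12, 1 of 12, 0 of 12, 0 of 8 and 1 of 12 then stood higher. These compare cells within 1 library, not conditions, and carry no test.

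Some members have near-identical copies elsewhere in the table. Gm10250 shares 485 bases with Atp5h, the d subunit of ATP synthase, at 99.0% identity, and Gm11273 shares 410 bases with Cox5b at 94.39%. Of the UMIs on Atp5h and Gm10250 together, Gm10250 held 5.99%, 4.67%, 17.2%, 29.5% and 4.03%. Gm11273 held 6.09%, 4.49%, 16.3%, 28.0% and 3.21% of those on Cox5b and Gm11273. The P63 and P80 libraries were high for both copies. They also had the highest median share of UMIs on ribosomal pseudogenes per cell, at 1.09%, 0.578%, 3.36%, 4.602% and 0.556%.

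**Figure D5:**
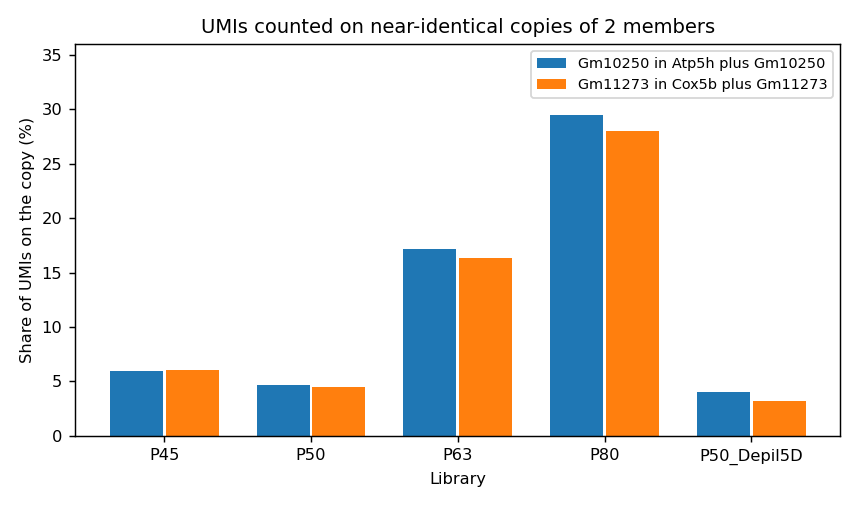
Share of UMIs (percent) that fell on the near-identical copy, Gm10250 for Atp5h and Gm11273 for Cox5b, in each library over all cells. P63 and P80 stand above the other 3 libraries for both pairs.

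Ratios of members alone are set here beside those with the copy added. In T cells Atp5h was 0.639 for P80 over P45 and Gm10250 was 6.085, while Atp5h and Gm10250 together gave 0.957 (0.728 to 1.238), and the sum was not called. In keratinocytes Atp5h gave 0.965 and the pair 1.256 (1.138 to 1.384). For Cox5b the ratio in T cells was 1.099 alone and 1.502 (1.092 to 2.023) with Gm11273, and in keratinocytes 0.909 and 1.176. Which gene the transcripts came from was not tested.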

How the data were processed

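Per the labels, dissected dermis was digested, live CD45+ cells were sorted, and 3' libraries were made on the 10x Genomics platform. The authors deposited whole-number UMI counts per gene and barcode for each library. The submitters' processing notes name the mm10 build and Seurat; no source used here gives the aligner, the counter, the annotation, the use of strand or the cell calling.

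The members, lists and tests were chosen with earlier results of these data known. Barcodes with fewer than 200 detected genes or over 10% mt- UMIs were removed (61 of 6223); no doublet caller was run, so doublets must be taken to remain. Median depth per cell was 2543, 1435, 1888.5, 1249 and 1475 UMIs. Of 6162 cells, 1229 had fewer than 2 markers of any class and 302 tied; of the gated cells 820 stood at the limit of 2 markers and 940 carried 2 or more markers of another class. A gate on erythroid markers was dropped after it was seen to take P45 cells. Markers of 14 classes were used.

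UMIs were summed per class and library (at least 10 cells) and tested in edgeR 4.0.16 (R 4.3.3) with TMM factors, filterByExpr, the library as a block and the quasi-likelihood F test, with Benjamini-Hochberg adjustment; DESeq2 1.42.0 was an alternative. SE is the log2 difference divided by the square root of F. Tests on simulated data gave more false calls than the nominal share, most in the keratinocyte comparison, also with robust and legacy fits. With the default fit, 5.61% of calls were false in T cells against dendritic cells (6 of 107), near the nominal share. The false share was 8.57% in macrophages against dendritic cells and 11.6% in the keratinocyte comparison. Genes given a change in the simulation were drawn from all genes tested, whatever their level, so the recovered shares are not those of members. A simulated log2 change of 1 was recovered for 24% of genes in T cells against dendritic cells. It was recovered for 20% in macrophages against dendritic cells and 63% in the keratinocyte comparison. At a log2 change of 2 the shares were 77%, 76% and 97%. Numbers of calls therefore cannot be compared directly between comparisons. The labels do not say whether libraries came from separate animals, so p-values measure the spread between these libraries. Intervals are exact Poisson or conditional 95% intervals (scipy 1.17.1) and cover counting error only.

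Named by rule were, in each comparison, the 6 members with the largest called change in each direction, the 5 most abundant, the highest of each complex, all isoform pairs and, between libraries, up to 5 called members in each direction; other names were chosen after their values were seen. Coordinates are from GENCODE vM21 (GRCm38) and promoters from RefSeq (GRCm38.p6). Copies were sought among annotated transcripts at 85% identity or more over at least 300 bases. The motifs, promoters and copies shown and the split of cycling T cells were chosen after seeing the data. Among the members with no matched RefSeq promoter were Cox4i2, Ndufa2, Uqcrc2, Ndufb9, Uqcrb, Cox4i1, Ndufs1, Ndufaf6, Uqcrq, Cox6c, Sdhc, Cox6a2, Ndufa4l2, Cox8c and Atp5a1. Values of 1 member are not reported here.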

Additional observations from a re-analysis of the deposited data

Results flagged for a closer look

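Complex II took up 0.0155% of macrophage UMIs in the P50_Depil5D library, against 0.0271% to 0.0308% in the other 4, a gap wide enough to set that library apart by Dixon's test; chance flags about 1 in 20 such groups. Its 4 genes include Sdha and Sdhb, which were lower in that library than in P50 on 3 and 8 UMIs from 68 cells.

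For P80 over P45, the summed members stood higher in dendritic cells (ratio 1.092) and lower in macrophages (0.835) and keratinocytes (0.953), in opposite directions with 1 library each. The mt- genes stood higher in keratinocytes (1.13) and lower in T cells (0.84) and macrophages (0.885). Neither difference between classes was tested, since each class had 1 library per age.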

How the results depend on the processing

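No paired analysis was possible because each group has 1 library and all carry the same replicate number; the library itself was the block in the main test. Of 170 alternative values, 123 kept their size and direction, 45 moved and 2 reversed. The mean log2 ratio of nuclear to mt- UMIs moved by less than its SD over libraries in all 4 classes under every alternative run for it. Leaving out 1 of the 5 libraries cannot move a mean that far, so those alternatives could not fail. Without shared barcodes the keratinocyte mean went from -0.466 (SD 0.176) to -0.636 (SD 0.362). The summed ratios of T cells and dendritic cells stayed within their counting intervals under every alternative run for them.

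Members called higher in T cells than in dendritic cells (2) numbered 5 with no scaling factors and 5 with RLE factors, 0 with a gate of at least 3 markers, and 1 with each of 6 others: no filter on low counts, no library term, without shared barcodes, without cells of low ribosomal pseudogene share, mt- genes left out, and without cells carrying 2 or more markers of another class. Those lower (4) numbered 7 by DESeq2, 2 with no filter, 2 with the gate of 3 markers and 9 without cells carrying other markers. Leaving out 1 library gave 0 to 2 higher and 2 to 7 lower.

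Members lower in macrophages than in dendritic cells (1) numbered 2 with no scaling factors, with RLE factors, by DESeq2 and with mt- genes left out. They numbered 0 with no library term, the gate of 3 markers, without shared barcodes, without cells of low pseudogene share and without cells carrying other markers, and 0 to 1 on leaving out 1 library. The member differed: Cox6b2 with no filter, without P50_Depil5D and with no scaling factors, RLE factors or mt- genes left out, the last 3 with Ndufa6 added; Ndufa6 without P63; and Ndufa6 and Atp5b by DESeq2.

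Members higher in keratinocytes (33) numbered 16 without shared barcodes and 20 to 41 on leaving out 1 library. Those lower (2) numbered 10 with no scaling factors, 8 with RLE factors, 10 by DESeq2, 5 without shared barcodes, 4 with mt- genes left out, and 1 to 5 on leaving out 1 library. Fewer cells enter without shared barcodes; beyond that the cause was not tested. For summed members in keratinocytes, P80 over P45 (0.953) was 0.914 without shared barcodes and 0.925 without cells of low pseudogene share. Without cells carrying 2 or more markers of another class, an alternative chosen after seeing the data, it reversed to 1.001, and P50_Depil5D over P50 (0.930) reversed to 1.005. The cause was not tested.

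The P63 and P80 dendritic cells (12 and 11 cells) limit every value that rests on them.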

Other observations

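A few gated pericyte or smooth muscle cells stood apart. Members took up 7.07% of their UMIs in P45 and 4.23% in P50, from 4 cells each, and 7 of all 30 UMIs of Cox4i2 fell in the 4 P50 cells. Of the 8 UMIs of the muscle isoform Cox6a2, 4 fell in P45 macrophages.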
